A study of Mus musculus with 4 samples.

Results

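Serum amyloid A (Saa1, Saa2, Saa3 and Saa4), orosomucoid (Orm1, Orm2 and Orm3), alpha-2-macroglobulin (A2m), lipopolysaccharide binding protein (Lbp) and haptoglobin (Hp) are secreted plasma proteins, most of them acute phase proteins made in the liver. Their mRNAs were followed on 4 mouse liver arrays as 10 of 18194 genes, through 13 probe sets, which are the sets of short probes that an array reads as one measurement. Saa1, Saa2, Saa3 and Orm2 were 4.87-fold to 21.8-fold higher, and A2m at least 26.6-fold, in livers labelled as lacking Rps6 (DS6) than in WT livers, while in livers with a c-Myc transgene none of the 10 was 2-fold higher with the Rps6 deletion (DS6 Myc) than without it, and Saa1, Saa2, Orm2 and Orm3 were lower. The 10 genes were taken by name and were chosen from earlier results of the same arrays, in which the values of DS6 and DS6 Myc had been seen. Every ratio of these genes below is therefore a description and carries no test. All 10 had at least 1 probe set of their own and no value was left out by a filter.

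Each array held liver RNA of 1 genotype, pooled in equal amounts from 3 mice aged 5 weeks, so no replicate spread between mice or arrays can be given for any value. The mice were males by the labels, had not been fasted, and by the study's methods came from mixed hybrid strains. WT livers had Rps6, the gene of a protein of the small ribosomal subunit, undeleted, and the study describes its WT mice as free of Cre. In DS6 livers both Rps6 alleles were loxP-flanked and Albumin-Cre was present, which deletes the gene in hepatoblasts and so in hepatocytes and bile duct cells. That deletion is incomplete and leaves a mosaic. Myc livers carried the Alb-c-Myc transgene, which expresses c-Myc from the albumin promoter, and DS6 Myc livers carried Alb-c-Myc together with the Rps6 deletion. The comparison addresses how these plasma protein genes differed between livers with and without the Rps6 deletion, first without and then with the transgene.

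In the acute phase response, cytokines released at a site of injury or infection reach hepatocytes and change which plasma proteins they secrete. Interleukin-6 acts through its shared receptor chain gp130 and STAT3, interleukin-1 and tumour necrosis factor act through NF-κB, and C/EBP factors and glucocorticoids add to both. Saa1 and Saa2 encode apolipoproteins of high density lipoprotein that can rise steeply in plasma, Saa3 is also made by macrophages and fat cells, and Saa4 is known as the constitutive member. Orosomucoids are carriers of basic and lipophilic drugs, A2m traps proteases, Lbp hands bacterial lipopolysaccharide to CD14, and Hp binds free haemoglobin.

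The arrays were first checked against their labels. The 9 probe sets shared by Rps6 and Rps6-ps4 were all lower in DS6 than in WT, but only slightly (median log2 ratio -0.29, from -0.42 to -0.10). They were all lower in DS6 Myc than in Myc by more (median -1.76, from -2.37 to -1.25). The DS6 array thus showed little of the Rps6 mRNA loss that its label names, and WT, DS6, Myc and DS6 Myc below name the arrays as labelled. The Myc probe set read 8.33, 8.89, 11.68 and 11.37 in WT, DS6, Myc and DS6 Myc. WT went in part against its male label. Xist, which silences 1 X chromosome in female cells, read 11.84 in WT against 5.88 to 6.33 on the other arrays, although Y-linked genes were at similar values on all 4. All 8 measured pancreatic acinar genes were at least 2-fold higher in WT than in DS6, with Cpb1 at 9.61 against 4.66. For the 10 genes and for the counts of each gene list, DS6 is therefore also set against the Myc array. The 8 hepatocyte markers had a mean of 14.70 to 14.87 on the 4 arrays, near the top of the scale, where a change may not be seen.

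The genes of both families lie in clusters. On the RefSeq map the order on chromosome 4 was Orm1, Orm3 and Orm2, and on chromosome 7 it was Saa3, Saa4, the pseudogene Saa-ps, Saa1 and Saa2. The stretch of 250 bases before the start site was in the RefSeq promoter table (GRCm38.p6) for 6 of the 10 genes, and it is printed here because neighbours in these clusters differed from each other on the arrays. Each line runs 5′ to 3′ on the strand of the gene, and capitals mark the letters TTNNGNAA, a consensus of C/EBP factors, on either strand. Positions are counted from the start site, with -1 for the base just before it.
Saa1 (chr7:46742981-46743230, minus strand): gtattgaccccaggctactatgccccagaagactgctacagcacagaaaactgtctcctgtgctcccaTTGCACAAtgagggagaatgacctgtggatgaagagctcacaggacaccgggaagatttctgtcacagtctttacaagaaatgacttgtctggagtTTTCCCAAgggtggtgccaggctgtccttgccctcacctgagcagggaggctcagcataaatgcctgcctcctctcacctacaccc
Saa2 (chr7:46751583-46751832, plus strand): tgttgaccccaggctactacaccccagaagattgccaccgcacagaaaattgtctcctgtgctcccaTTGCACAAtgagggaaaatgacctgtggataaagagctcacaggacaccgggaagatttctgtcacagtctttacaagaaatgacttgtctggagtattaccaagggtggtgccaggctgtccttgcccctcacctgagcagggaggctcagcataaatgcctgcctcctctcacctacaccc
Saa3 (chr7:46715677-46715926, minus strand): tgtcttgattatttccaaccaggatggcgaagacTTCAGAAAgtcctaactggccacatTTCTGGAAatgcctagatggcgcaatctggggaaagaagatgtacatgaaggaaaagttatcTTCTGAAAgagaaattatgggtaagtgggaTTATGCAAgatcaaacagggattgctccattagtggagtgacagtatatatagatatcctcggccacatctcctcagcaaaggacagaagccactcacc
Saa4 (chr7:46732604-46732853, minus strand): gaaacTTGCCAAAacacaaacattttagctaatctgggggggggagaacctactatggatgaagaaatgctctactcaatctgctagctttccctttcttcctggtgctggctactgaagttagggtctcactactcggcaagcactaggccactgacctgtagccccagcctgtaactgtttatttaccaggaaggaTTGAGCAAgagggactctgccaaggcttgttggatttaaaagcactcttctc
Orm2 (chr4:63362199-63362448, plus strand): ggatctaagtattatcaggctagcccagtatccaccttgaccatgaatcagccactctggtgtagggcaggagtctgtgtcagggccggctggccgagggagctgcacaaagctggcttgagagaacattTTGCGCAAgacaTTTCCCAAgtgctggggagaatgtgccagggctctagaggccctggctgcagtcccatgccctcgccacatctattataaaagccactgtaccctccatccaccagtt
Orm3 (chr4:63355908-63356157, plus strand): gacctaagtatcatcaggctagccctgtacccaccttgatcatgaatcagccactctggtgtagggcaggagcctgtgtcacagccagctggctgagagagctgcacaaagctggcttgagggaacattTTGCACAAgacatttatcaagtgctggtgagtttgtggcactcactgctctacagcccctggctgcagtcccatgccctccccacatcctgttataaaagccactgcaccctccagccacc

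The Saa1 and Saa2 windows were identical at 95.2% of positions after global alignment and the Orm2 and Orm3 windows at 87.2%. The other 13 pairs ranged from 42.0% to 52.4%. C/EBP letters stood in 6 of the 6 windows and in 36.8% of all 32851 promoters of the table searched over the same length. Saa1 and Saa2 shared a match, first base at -182 and -183. Saa1 had another at -86, where Saa2 had none. Saa3 had 4 matches and Saa4 had 2. Orm2 and Orm3 each had a match in like place, first base at -120 and -121, and Orm2 had a further one at -108. The glucocorticoid receptor motif TGTTCT stood in Orm2 alone, on the opposite strand with its first base at -128, clear of the C/EBP matches, and in 16.1% of all promoters. No window held the NF-κB consensus, the STAT letters TTCNNNGAA or the letters CTGGGA of the IL-6 type 2 element, which stood in 7.25%, 7.02% and 27.0% of all promoters. Letters that match are a description and not a binding site, and no match says only that these letters were not in these windows.

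**Figure D1:**
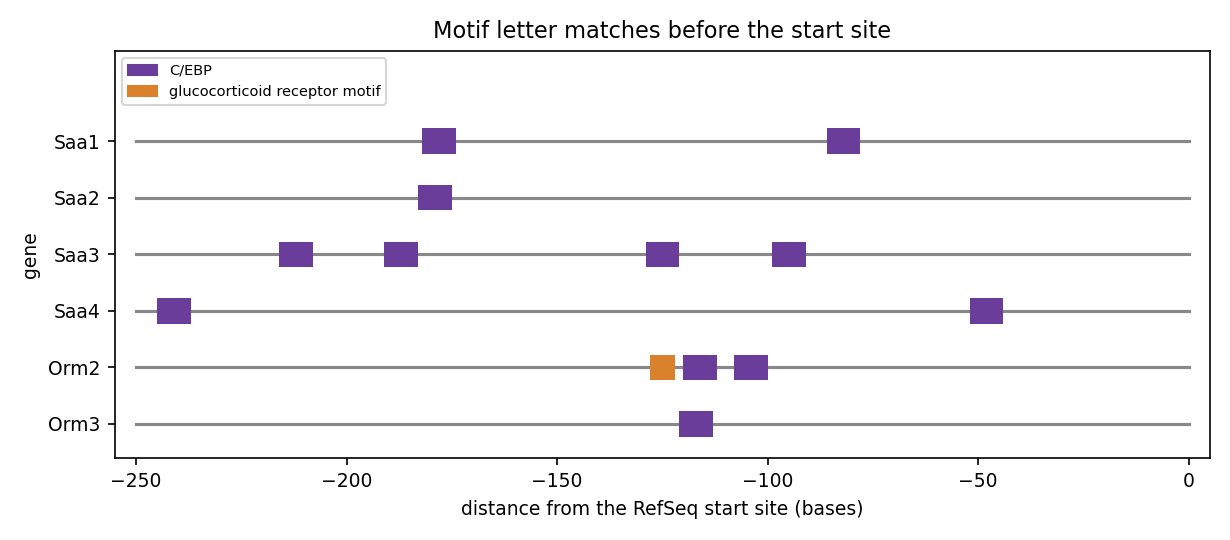
Places of motif letters in the 250 bases before the RefSeq start site of 6 genes, with distance from the start site in bases on the horizontal axis and 1 line per gene. Purple blocks mark C/EBP letters, present in all 6 windows, and the orange block marks the glucocorticoid receptor motif, present in Orm2 only.

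Saa1, Saa2 and Saa3 were all highest in DS6. On the RMA scale, where values are log2 and a step of 1 is a 2-fold change, Saa1 read 12.30 in WT, 14.58 in DS6, 12.64 in Myc and 10.88 in DS6 Myc. WT and Myc were close, DS6 stood above both and DS6 Myc below both. The log2 ratio of DS6 over WT was 2.28, or 4.87-fold, while DS6 Myc over Myc was -1.77, or 3.4-fold in the opposite direction. A second probe set under the name Saa1 read 11.94, 14.59, 12.29 and 10.58 in the same order, with ratios of 2.65 (DS6 over WT) and -1.71 (DS6 Myc over Myc). RefSeq gives the accession behind that probe set to Saa2, so the signals of the 2 near-identical genes may not be separate.

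Saa2, its neighbour and closest copy, read 10.59 in WT, 14.25 in DS6, 11.03 in Myc and 9.55 in DS6 Myc. The order of the arrays was that of Saa1 with a larger span, 4.70 log2 units against 3.70. Saa2 rose by 3.66 (12.6-fold) in DS6 over WT and fell by 1.48 in DS6 Myc over Myc. Its only probe set is of a type whose probes can also bind other transcripts, and how much of its signal is that of Saa1 was not tested.

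Saa3 read 9.22 in WT, 13.49 in DS6, 9.62 in Myc and 9.61 in DS6 Myc. Here DS6 stood alone, and the other 3 arrays lay within 0.40 of each other. The ratio was 4.27 (19.4-fold) in DS6 over WT and -0.01 in DS6 Myc over Myc, so that Saa3 showed no fall with the transgene of the kind seen in Saa1 and Saa2. The sign of the latter ratio turned when arrays were centred on their medians.

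Saa4 went the other way. It read 13.38 in WT, 12.19 in DS6, 13.38 in Myc and 12.51 in DS6 Myc, so that both arrays with the Rps6 deletion were below both without it. Saa4 fell by 1.19 (2.28-fold) in DS6 over WT, and its ratio was -0.88 in DS6 Myc over Myc. A second probe set of the gene gave -1.34 and -1.27, past 2-fold in both. Saa4 was below 0 in both deletion ratios and was the only one of the 10 genes that was not highest in DS6.

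**Figure D2:**
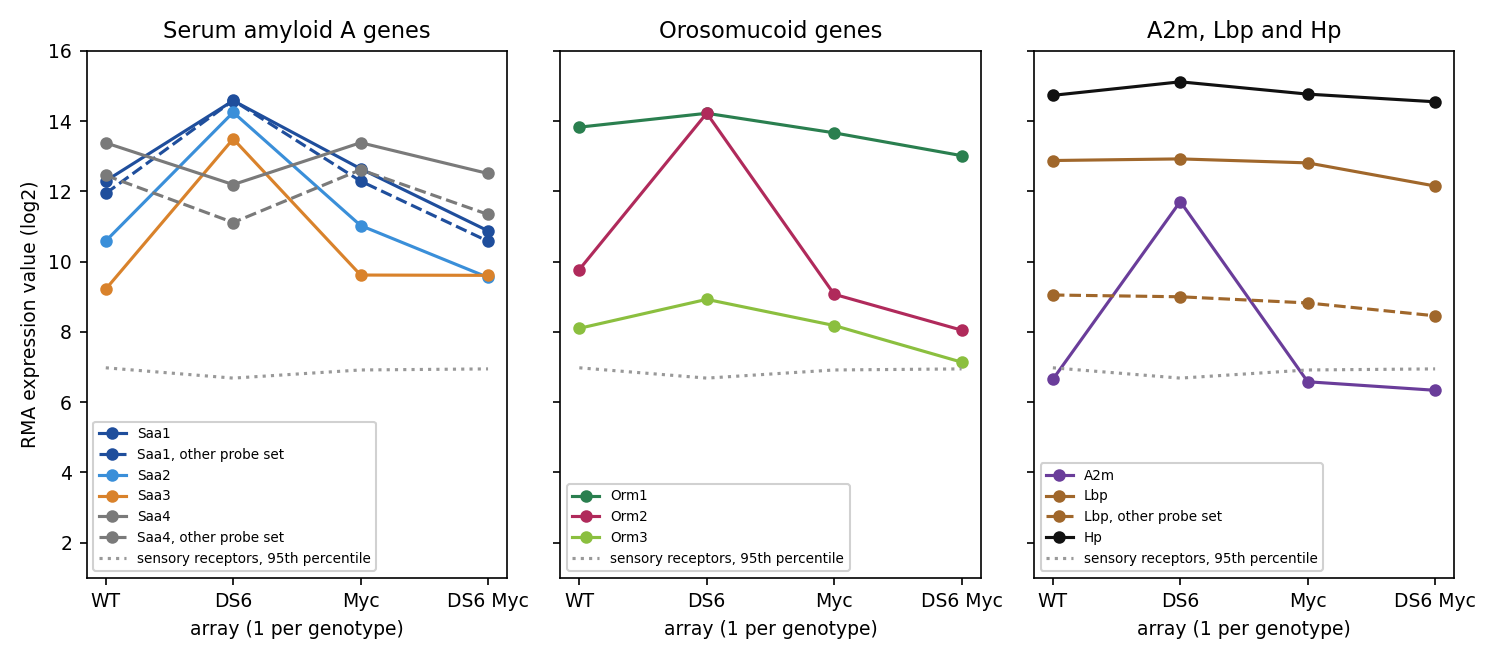
RMA expression values (log2, vertical axis) on the WT, DS6, Myc and DS6 Myc arrays (horizontal axis, 1 array per genotype) for the 13 probe sets of the 10 genes. Solid lines are the probe set that stands for a gene, dashed lines a second probe set, and the dotted line the 95th percentile of 80 sensory receptor probe sets. Saa1, Saa2, Saa3, Orm2 and A2m peak in DS6, Saa4 is lowest there, and Lbp and Hp stay within 2-fold.

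Among the orosomucoids the 3 genes differed widely. Orm2 read 9.77 in WT, 14.22 in DS6, 9.07 in Myc and 8.05 in DS6 Myc. Its peak in DS6 was the highest of its values by 4.45 log2 units, and DS6 Myc was the lowest. It rose 21.8-fold in DS6 over WT, and 35.6-fold in DS6 over Myc. In DS6 Myc over Myc it fell by 1.02, just past 2-fold. Between the 2 arrays with the deletion, DS6 Myc over DS6, the ratio was -6.17, or 72.1-fold, the largest span of the 10 genes, and 2 of all 18194 genes had a lower ratio.

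Orm1 read 13.83 in WT, 14.22 in DS6, 13.66 in Myc and 13.02 in DS6 Myc. The order was that of Orm2, with a ratio of 0.39 in DS6 over WT and -0.65 in DS6 Myc over Myc. Only DS6 Myc over DS6 passed 2-fold, with a fall of 1.21. Orm3 read 8.10, 8.93, 8.18 and 7.14. Its ratios were 0.82 in DS6 over WT and -1.04 in DS6 Myc over Myc, and on DS6 Myc it lay 0.19 above the 95th percentile of sensory receptor probe sets, genes that the liver is not known to use. The Orm genes are close copies of each other, and how far their probe sets share signal was not tested.

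A2m read 6.65 in WT, 11.71 in DS6, 6.58 in Myc and 6.34 in DS6 Myc. A level above that of the sensory receptors was seen in DS6 only, since its value lay below their 95th percentile on the other 3 arrays (6.98, 6.92 and 6.95). With WT set at that percentile, DS6 was higher by at least 4.73, or at least 26.6-fold, and with Myc set at it at least 27.7-fold. No ratio among the other 3 arrays can be read for A2m. The related inhibitors Pzp and Mug1, which belong to the same family, and the membrane protein Cd109 had ratios of 0.00, -0.61 and -0.48 in DS6 over WT, so none of the 3 measured relatives passed 2-fold. Pzp read 14.65 to 14.90 on the arrays, near the top of the scale. Cd109 read 6.51 to 6.99, near or below the 95th percentile of sensory receptor probe sets. A change in Pzp or Cd109 may thus not be seen.

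Lbp and Hp differed least. Lbp read 12.88 in WT, 12.92 in DS6, 12.81 in Myc and 12.15 in DS6 Myc, where the first 3 arrays were level and DS6 Myc was lower. Its ratio was 0.05 in DS6 over WT and -0.66 in DS6 Myc over Myc. A second probe set ran from 9.05 in WT to 8.46 in DS6 Myc, with ratios of -0.05 and -0.37. Hp read 14.73, 15.12, 14.77 and 14.55. Its ratios were 0.38 in DS6 over WT and -0.22 in DS6 Myc over Myc. The highest value of any probe set was 15.39 to 15.46 on the 4 arrays, and 9 probe sets lay above Hp in DS6, so that it sat near the top of the scale.

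With the deletion but no transgene (DS6 over WT), 5 of the 10 genes were at least 2-fold higher (A2m, Orm2, Saa3, Saa2 and Saa1), 1 was lower (Saa4) and 4 lay within 2-fold. Across all 18194 genes, 7.24% passed 2-fold upward and 2.54% downward. The median ratio of the 10 genes was 1.55, and 0.82 without A2m, against -0.05 over all genes. At least 8-fold were 4 of the 10 genes (A2m, Orm2, Saa3 and Saa2), against 0.572% of all genes. Taken over the Myc array rather than WT, DS6 was past 2-fold for the same 5 genes, with Orm2, Saa3, Saa2 and Saa1 at 5.15, 3.87, 3.22 and 1.94, and Saa4 read -1.19. These values chose the genes and support nothing further.

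With the deletion and the transgene (DS6 Myc over Myc), a pair of arrays that shares none with the first, the 9 genes other than A2m were below 0, except that Saa3 was above 0 when arrays were centred on their medians. Of the 10 genes 4 were at least 2-fold lower (Saa1 -1.77, Saa2 -1.48, Orm3 -1.04 and Orm2 -1.02), and 0 were higher, against 1.36% lower and 1.99% higher of all genes. Their median was -0.77, against -0.01 over all genes. The values of DS6 Myc had also been seen when the genes were chosen, so these counts and this median support nothing further either. Of the 1318 genes at least 2-fold higher in DS6 over WT, 12.8% were below 0 in DS6 Myc over Myc (169 genes), and the median of the 1318 was 0.45. Of the 5 acute phase genes among them, Saa1, Saa2 and Orm2 were below 0 under all 3 other scalings too. Saa3 read -0.01 on the deposited values and -0.08 to 0.01 under those scalings, and no ratio can be read for A2m. Past 2-fold in both directions, higher without and lower with the transgene, were 7 genes of the array (0.0385%), and these were Orm2, Saa2, Saa1, Osbpl3, Scara5, Serpinb1a and Krt23. Serpinb1a read 6.72, 6.76 and 5.24 in WT, Myc and DS6 Myc, below the 95th percentile of sensory receptor probe sets on each. Its fall with the transgene therefore cannot be read, although it is counted here. Osbpl3, which encodes an oxysterol-binding protein, and Scara5, a ferritin receptor, were also at least 2-fold higher in Myc than in WT, by 1.94 and 1.79, which none of the 10 genes was. Over the Myc array rather than WT, Scara5 and Krt23 were within 2-fold in DS6, at 0.76 and 0.97.

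**Figure D3:**
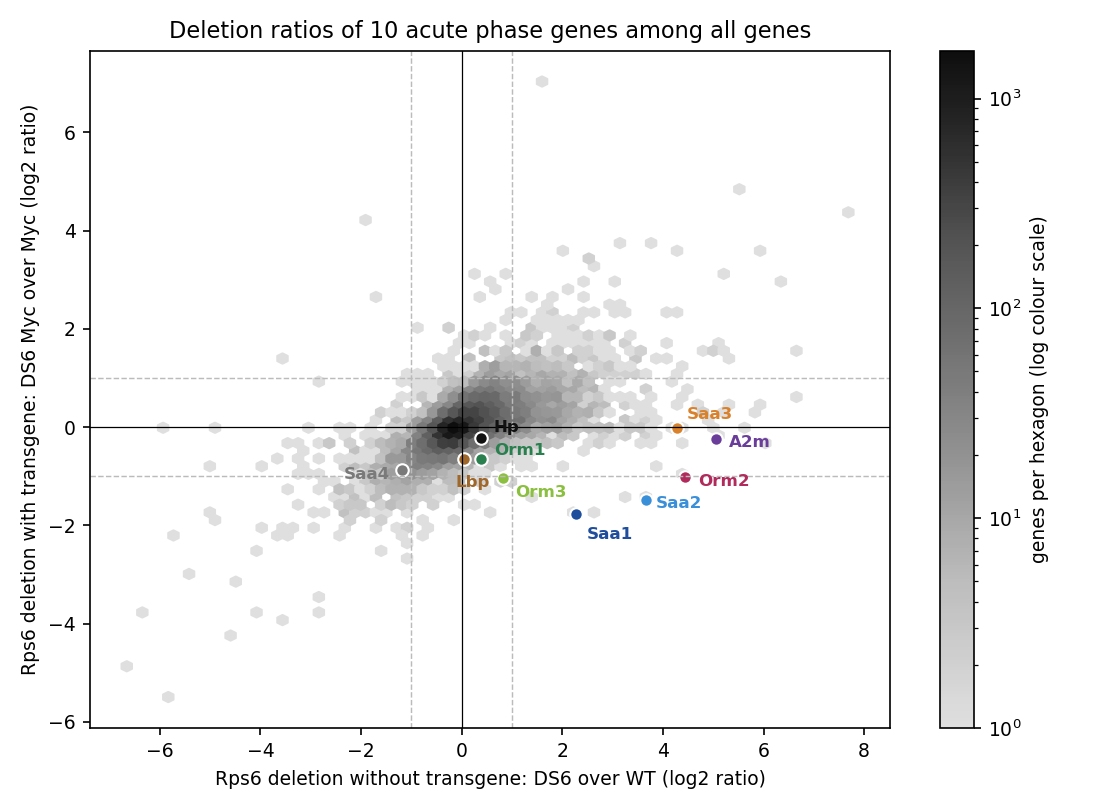
Log2 ratio of DS6 over WT (horizontal axis) against that of DS6 Myc over Myc (vertical axis) for 18194 genes, shaded by genes per hexagon on a log scale, with the 10 acute phase genes as coloured points. Dashed lines mark 2-fold, and the height of A2m rests on values at background. Saa1, Saa2 and Orm2 lie past 2-fold to the right and below, Saa3 far right near 0, and Saa4 left and below.

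The difference between both deletion ratios (with minus without the transgene) was -5.47 for Orm2, -5.14 for Saa2, -4.28 for Saa3, -4.05 for Saa1, -1.87 for Orm3 and -1.04 for Orm1. It is not given for A2m, which was at background on 3 of its 4 arrays. It was -0.70 for Lbp, -0.60 for Hp and 0.31 for Saa4. The SD of this quantity between probe sets of 1 gene was 0.22 over 3379 genes, which is a spread of the measurement and not of mice. Without A2m the difference was -1 or lower for 6 of 9 genes, and for 4.61% of all genes. Its median over the 9 genes was -1.87, against 0.03 over all genes. No test of it was possible with 1 array per genotype.

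The transgene alone moved none of these genes past 2-fold. In Myc over WT the ratios ran from -0.70 (Orm2) to 0.44 (Saa2) with a median of 0.02, where 0.418% of all genes passed 2-fold upward and 0.335% downward. In DS6 Myc over DS6, 7 of the 10 genes were at least 2-fold lower and 0 higher, against 4.29% and 0.769% of all genes. In DS6 Myc over WT, Orm2, Saa1 and Saa2 were at least 2-fold lower, at -1.72, -1.42 and -1.04, and none was higher, against 1.8% and 3.0% of all genes. These 2 comparisons reuse the arrays of the deletion ratios and add no independent measurement. Leaving out A2m, whose lowest array cannot be told, 7 of 9 genes were highest in DS6 and lowest in DS6 Myc, an order that 6.21% of all genes had.

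The counts of the lists that follow stand beside the shares over all genes given above, 7.24% higher and 2.54% lower in DS6 over WT and 1.99% and 1.36% in DS6 Myc over Myc. No share over all genes is given for DS6 over Myc. Counts over the Myc array, of the lists and of the 10 genes, thus have no share to be read against. Of 21 other positive acute phase genes measured, 6 rose at least 2-fold in DS6 over WT and 1 fell (median 0.49). Over the Myc array 8 were higher and 1 lower (median 0.70). In DS6 Myc over Myc, 2 were higher and 2 lower (median -0.14). Lcn2, which withholds iron from bacteria, read 8.87, 14.02, 8.94 and 10.59 in WT, DS6, Myc and DS6 Myc. Cd14, the partner of Lbp, read 7.23, 12.10, 7.12 and 8.71. Both rose in both comparisons, Lcn2 by 5.15 and 1.65 and Cd14 by 4.86 and 1.58, where Saa3, at 4.27 without the transgene, had -0.01 with it. Apcs (serum amyloid P) and Serpina3n (a protease inhibitor) rose by 1.27 and 1.15 in DS6 over WT and read -0.58 and -0.17 in DS6 Myc over Myc. The metallothioneins Mt2 and Mt1 rose by 1.98 and 1.30, and read 0.03 and 0.38 with the transgene. Hamp2, of the hepcidin family, fell in both, at -2.50 and -2.21, and Crp fell by 1.13 in DS6 Myc over Myc beside -0.90 in DS6 over WT. Of the 10 measured negative acute phase genes, whose products decline in the response, 1 rose (Apoa4, 1.39) and 1 fell (Serpina6, by 1.69) in DS6 over WT, and none passed 2-fold in DS6 Myc over Myc. Over the Myc array the counts were also 1 and 1. Alb, Ttr, Rbp4, Ahsg and Apoa1 of this list read 14.70 to 15.46, near the top of the scale, where a change may not be seen.

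Among 15 measured inducers and their receptors, 1 was at least 2-fold higher and 2 were lower in DS6 over WT. The number of higher genes in DS6 over WT was near the share over all genes, 7.24%. Over the Myc array 2 were higher and 2 lower. Il6 mRNA read 4.23 to 4.46 on the 4 arrays, in the range of the sensory receptors, and Il1b read 7.09, 7.96, 6.62 and 7.28 in WT, DS6, Myc and DS6 Myc, with 0.87 in DS6 over WT and 1.34 in DS6 over Myc. Osmr, the oncostatin M receptor, rose by 2.23 in DS6 over WT. In Myc and DS6 Myc it read 6.57 and 6.92, below the 95th percentile of sensory receptor probe sets. No ratio of DS6 Myc over Myc can therefore be read for Osmr. The receptor of leukemia inhibitory factor, Lifr, fell in both, at -2.89 and -2.04, as did Il1rap, a chain of the interleukin-1 receptor, at -2.23 and -1.68. The interleukin-6 receptor Il6ra read -0.69 and -0.66, and gp130 (Il6st) 0.35 and 0.07.

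Of 18 measured transducers and transcription factors, 6 passed 2-fold upward and 2 downward in DS6 over WT (median 0.30), or 5 and 2 over the Myc array (median 0.45), and 1 was higher and 0 lower in DS6 Myc over Myc (median 0.01). Socs3, the feedback inhibitor that STAT3 induces, rose by 1.11 over WT, read 0.73 over the Myc array and read -0.76 with the transgene, while Stat3 read 0.60 and 0.17. The C/EBP factor Cebpd rose by 1.07 and read -0.14, Cebpa fell by 1.11 and read -0.48, and Cebpb read -0.13 and -0.42. The NF-κB subunit Relb rose in both, by 2.91 and 1.69. Its values of 6.18 in WT and 6.52 in Myc lay below the 95th percentile of sensory receptor probe sets. The sizes of the 2 rises are therefore not to be compared. Nfkb2 rose by 1.25 and Bcl3 by 1.01 without the transgene, and they read 0.82 and 0.62 with it. Nfkbiz rose by 1.90 and read 0.07. Onecut1, a liver transcription factor, fell by 1.20 and read -0.27. In values, Socs3 read 8.49, 9.60, 8.87 and 8.11 in WT, DS6, Myc and DS6 Myc, highest in DS6 and lowest in DS6 Myc.

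Among 14 measured receptors and partners of the proteins, 5 rose past 2-fold and 0 fell in DS6 over WT, and over the Myc array 6 and 0. Beside Cd14 these were Hmox1, which breaks down haem (2.77), Fpr2, a receptor that SAA proteins bind (2.46), Tlr2 (2.13) and Cd163, the macrophage receptor of haptoglobin bound to haemoglobin (8.04 in WT and 9.53 in DS6). With the transgene, Cd14 and Hmox1 (1.25) were at least 2-fold higher, and Fpr2, Tlr2 and Cd163 read 0.23, -0.13 and 0.71.

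**Figure D4:**
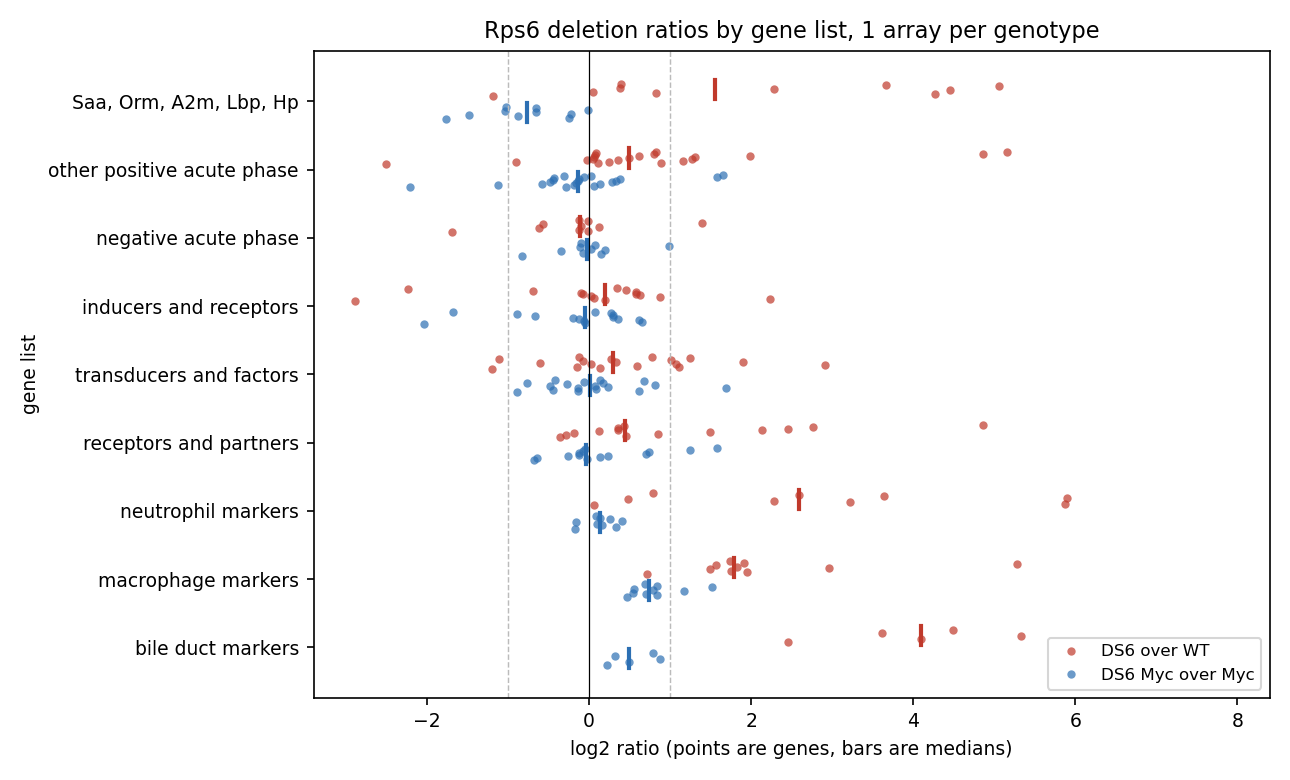
Log2 ratios (horizontal axis) of DS6 over WT (red) and DS6 Myc over Myc (blue) for 9 gene lists (vertical axis), 1 point per gene and a bar at the median of each list. Dashed lines mark 2-fold. The 10 acute phase genes have medians of 1.55 and -0.77, and the lists of neutrophil, macrophage and bile duct markers have medians above 0 in both comparisons. The neutrophil median of DS6 Myc over Myc rests on values at background.

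Markers of other cell types moved along the same arrays. In DS6 over WT, 9 of 10 macrophage markers, 6 of 9 neutrophil markers, 5 of 5 bile duct markers and 8 of 9 fetal liver genes were at least 2-fold higher (medians 1.79, 2.59, 4.10 and 4.34). Over the Myc array these counts were 9, 7, 5 and 8. The mean level of the neutrophil list was 6.73, 9.49, 6.59 and 6.71 in WT, DS6, Myc and DS6 Myc, and S100a8 alone read 7.14, 13.00, 7.02 and 7.42, while the granule enzymes Elane and Mpo read 6.09 to 6.76. The bile duct list had mean levels of 6.63, 10.63, 6.78 and 7.32, and the macrophage list 9.44, 11.56, 9.31 and 10.12. In DS6 Myc over Myc the medians of these 3 lists were 0.13, 0.49 and 0.75, above 0 where those of the Saa and Orm genes were below it. On Myc and DS6 Myc, however, Ltf, Camp, Mpo, Elane, Mmp8 and Mmp9 lay below the 95th percentile of sensory receptor probe sets. So did Krt7 and Sox9 of the bile duct list. The neutrophil median, which is the ratio of Ltf, thus rests on background and gives no direction. Of 3 adipocyte markers, 0 passed 2-fold in DS6 over WT and 1 was lower over the Myc array. The lower one was Adipoq, which like Lep lay below the 95th percentile of sensory receptor probe sets on every array. These counts thus rest largely on background. The part of other cells in the values of Saa3, A2m and the other genes was not tested, and in whole liver RNA fewer cells of a type and less RNA per cell cannot be told apart.

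Genes with the pattern most like the 5 whose values spanned at least 3 log2 units were sought over the 4 arrays, each gene centred on its own mean, among 9033 genes with a mean of at least 8. The measure was the Euclidean distance in log2 units, where 0 is the same pattern. For Saa3 the closest were Igha (0.37), an immunoglobulin chain, Pla2g7 (0.37), a phospholipase of macrophages, and Peg3 (0.63). For A2m they were S100a6 (0.49), the chemokine Cxcl13 (0.56) and Krt19 (0.59), a keratin of bile duct cells. For Saa2 they were Ngp (0.93), a granule protein of neutrophils, Cxcl13 (1.03) and Mmp7 (1.04). For Orm2 they were Cxcl13 (0.95), Ngp (1.46) and S100a6 (1.46), and for Saa1 they were Wfdc2 (0.86), Apcs (1.19) and Krt23 (1.22). With 4 values a gene, these are descriptions of shape. S100a6, Krt19, Ngp, Mmp7 and Pla2g7 were above 8 in DS6 only, so they met the limit on the mean through that array. The limit itself thus favours genes high in DS6. For A2m the distance also rests on 3 arrays at background.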

How the data were processed

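Total liver RNA was hybridized to Affymetrix mouse GeneChip arrays, 1 array per genotype with RNA of 3 mice pooled. The authors deposited log2 expression values made by RMA followed by quantile normalization, for 45101 probe sets, with the tools RMA and affy named in the submitters' notes, whose versions no source used here states. Symbols came from the platform annotation (34958 probe sets with 1 symbol, 932 with several, 9211 with none). A gene was represented by the single-symbol probe set that was brightest on average across all 4 arrays, for 18194 genes. Ratios are differences of log2 values, computed with Python 3.11.15 and pandas 2.3.3. Genes were counted as higher or lower at 2-fold and beyond, and a value near that mark can fall on either side. No gene was filtered, no fit across replicates was possible, and the number of arrays limits the precision. Quantile normalization forces equal distributions on the arrays and can compress the brightest genes. The level of 80 olfactory and vomeronasal receptor probe sets described background. The 10 genes and all lists were chosen with earlier results of these data known. All 10 genes were named, and from other lists those past 2-fold, at most 6 a list by size, with receptors, inducers and relatives of the 10 by level. Osbpl3 and Scara5 were named after their values were seen, as were Elane, Mpo, S100a8, Stat3, Cebpb and Il6st. Promoters and gene order came from RefSeq (GRCm38.p6), and the gene identifiers of all 13 probe sets led to the same symbols there, although the accession of 1 of them lies under Saa2 and not Saa1. Counting was tested on simulated arrays. Other normalizations, probe set choices and thresholds were tried as alternatives. The 4 promoters of Orm1, A2m, Lbp and Hp were not analysed here.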

Additional observations from a re-analysis of the deposited data

Results flagged for a closer look

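In 5 genes the deletion ratio had opposite signs without and with the transgene, each beyond the SD between probe sets of 1 gene. The difference (DS6 Myc over Myc minus DS6 over WT, log2) was -4.05 for Saa1, -5.14 for Saa2, -1.04 for Orm1, -5.47 for Orm2 and -1.87 for Orm3. The difference was not tested, since each genotype had 1 array of pooled RNA. With 1 array a genotype, any gene whose ratios differ in sign by more than that SD meets this mark.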

How the results depend on the processing

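With the renewed quantile normalization, median centring, loess, the mean of all probe sets, probe sets with several symbols, the filter on dim probe sets, probe sets without shared probes and thresholds of 1.5-fold and 4-fold, the Myc array in place of WT, and without A2m, an alternative added after its values were seen, 142 of 154 summary values changed little, 12 moved and 0 reversed. A count was held to have moved beyond 1.5 times, and a ratio or median beyond the SD of the ratio between probe sets of 1 gene. The 295 values of single genes stayed within that SD, but 4 ratios of at most 0.05 in size turned sign (Lbp in DS6 over WT, Saa3 in DS6 Myc over Myc and Saa4 in Myc over WT under 2 settings) and 2 crossed 2-fold (Saa4 to -1.07 in DS6 Myc over Myc with the mean of its probe sets, Orm3, from -0.96, to just past 2-fold in DS6 Myc over WT with renewed quantile normalization). Another normalization shifted a ratio by at most 0.17. Leaving out probe sets of the _x_at and _s_at types, which drops Saa2 and leaves 9 genes, the median was 0.82 in DS6 over WT and -1.79 in DS6 Myc over DS6, and the median difference between both deletion ratios was -1.87. Without A2m the same medians were 0.82, -1.79 and -1.87. At 4-fold, 0 genes were lower in DS6 over WT, 0 in DS6 Myc over Myc and 0 in DS6 Myc over WT. At 1.5-fold, 7 genes were lower in DS6 Myc over Myc, 1 in Myc over WT and 7 in DS6 Myc over WT. Fewer genes or a moved threshold set these changes by construction. In the same way, 2 of the settings could not change any value of these genes. Of their probe sets 0 had several symbols, and the filter on dim probe sets removed 0 of the genes. The values under these 2 settings equal the main ones by construction. They are counted among those that changed little, but say nothing about how stable the results are. Leaving out the _x_at and _s_at types also changed no single gene value, since the 9 genes kept were already represented by other probe sets. The mean of all probe sets could change only the 3 genes with more than 1 probe set. Of the 295 single gene values, 150 came from another scaling of the arrays. Shares over all genes at 1.5-fold and 4-fold are not given, so the counts there describe these genes only. No paired analysis was possible because each genotype had 1 array, and for the same reason no replicate could be left out. Values of A2m below the sensory receptor level on 3 arrays give only an upper limit there.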
